A study of Mus musculus with 6 samples.

Results

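Matrix metalloproteinases (MMPs), tissue inhibitors of metalloproteinases (TIMPs) and ADAMTS proteases (a disintegrin and metalloproteinase with thrombospondin motifs) were examined in CD31 bead fractions of tumors, labelled as tumor endothelial cells, with and without endothelial Notch activation. The genes were the RefSeq rows of the deposited expression table whose symbol was Mmp, Timp or Adamts followed by a number, with Mmp8 and Mmp9 left out. This gave 44 genes of 23473 RefSeq rows, of which 21 were MMPs, 4 were TIMPs and 19 were ADAMTS genes. The study set 3 tumor libraries of control mice (Ctrl) against 3 of NICeCA mice, in which Cdh5 cre ERT2, a tamoxifen-dependent recombinase driven by an endothelial promoter, frees the Notch1 intracellular domain from a stop cassette at the Rosa26 locus. All mice were C57BL/6, listed at an age of 8 weeks, and carried subcutaneous tumors of the transplanted Lewis lung carcinoma line (LLC). The genotype of the Ctrl mice is labelled wild type, and whether they also received tamoxifen is not stated for these libraries. The cells were captured on beads against CD31 after collagenase digestion of the tumors, and the labels speak of differing days of dissection without giving the day of each mouse.

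MMPs are secreted or membrane-anchored zinc endopeptidases that cut collagens, elastin, basement membrane proteins and many surface proteins, and most are made as inactive proenzymes. TIMPs bind the active site of MMPs and, to differing degrees, of ADAM and ADAMTS proteases. ADAMTS enzymes are secreted and act on procollagens, proteoglycans, von Willebrand factor or microfibrils. In growing vessels these enzymes are known for opening the basement membrane and for freeing matrix-bound growth factors, while TIMPs restrain them.

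Values are RPKM (reads scaled to row length and library total), so levels of different genes can be set side by side. Reads on RefSeq rows, recovered from the RPKM steps, numbered 29818454 to 30769916 in Ctrl and 27793301 to 29194187 in NICeCA libraries. The labels describe the captured cells as mostly endothelial, but macrophage markers were far above endothelial markers in every library. The 10 endothelial markers, all detected, summed to 191.4 to 526.4 RPKM in Ctrl and 442.9 to 582.7 RPKM in NICeCA, with Ctrl replicates 2 and 3 lowest. The 9 macrophage markers in the table summed to 6940 to 9942 and 5319 to 9140 RPKM, and Lyz2 alone had 2611 to 5555 RPKM. In such a mixture, fewer cells of a type and less RNA per cell cannot be told apart.

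Of the 44 genes, 26 reached a mean of 1 RPKM and were tested among 12320 RefSeq rows (limma on log2(RPKM + 1), Benjamini-Hochberg adjusted p under 0.05). In the NICeCA libraries, Mmp12, Mmp13, Mmp27 and Mmp19 rose and Adamts14, Adamts10, Timp2 and Adamts6 fell. The 4 higher genes were 15.4% of the 26, where 5.88% of all tested rows were higher, and the 4 lower genes were also 15.4%, where 7.68% of all tested rows were lower. Without Mmp27 and Timp4, which passed the 1 RPKM limit through the NICeCA libraries alone, 3 of 24 were higher (12.5%) and 4 of 24 lower (16.7%). All 4 higher genes were MMPs, out of 13 MMPs tested, and the 4 lower genes were 3 of 9 ADAMTS genes and 1 of 4 TIMPs. The median log2 fold change was 0.27 over the 26 genes, 0.18 over the MMPs, 0.51 over the TIMPs and 0.32 over the ADAMTS genes, against -0.05 over all tested rows. The 3 NICeCA libraries lay wholly above the 3 Ctrl libraries in 5 of the 26 genes (19.2%), against 16.5% of all tested rows, and wholly below in 6 (23.1%), against 24.4%, so these shares were close to the background. When libraries were scaled to one another by trimmed means, 4 genes were higher and 3 lower, while the higher share of calls over all tested rows went from 43.4% to 58.1%.

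**Figure D1:**
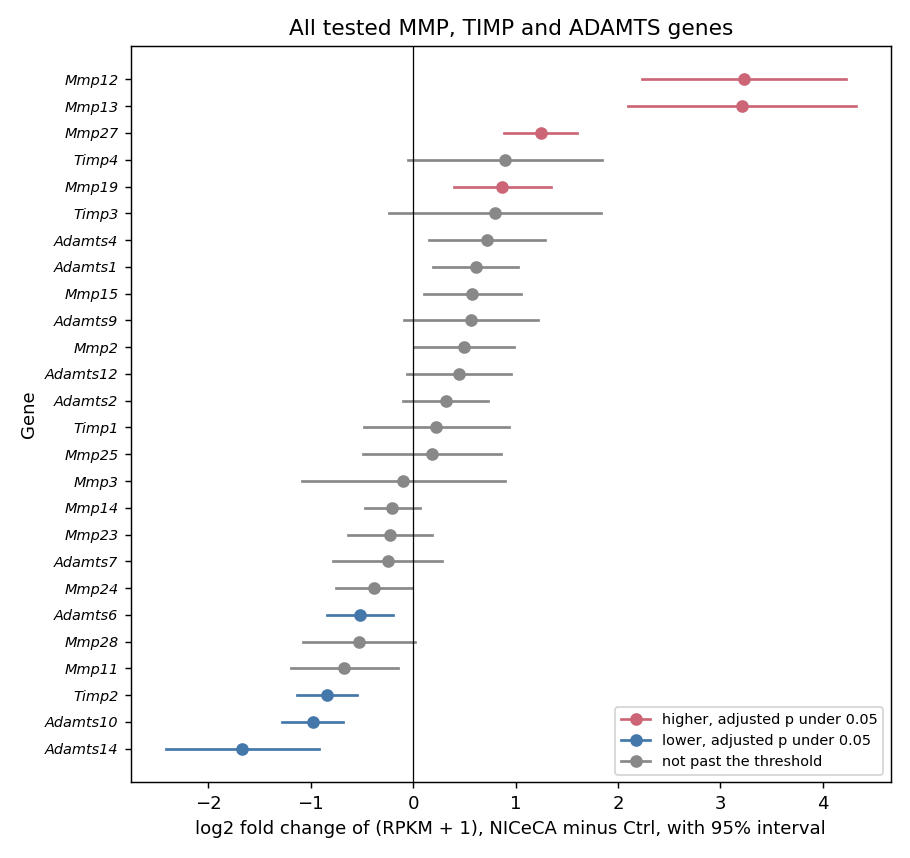
Log2 fold change of (RPKM + 1), NICeCA minus Ctrl, of the 26 tested genes in order of size, with 95% intervals of the limma fit over 3 libraries a group. Red points are higher and blue points lower at an adjusted p under 0.05, and grey points did not pass. Mmp12 (3.23) and Mmp13 (3.21) stand apart at the top, and Adamts14 (-1.67) is at the bottom.

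Of the 4 higher MMPs, 3 lie in the MMP gene cluster of chromosome 9, and the windows before their start sites are shown with that of their neighbour Mmp3, which did not pass the test. Each window holds the 250 bases before the RefSeq start (GRCm38.p6, 5′ to 3′ on the strand of the gene, the plus strand in all 4 cases). Capitals mark TGANTCA, the core motif of AP-1 factors, searched on both strands, and TATAAA, the letters of the TATA box, searched on the sense strand. The windows are Mmp13 at chr9:7272264-7272513, Mmp12 at chr9:7347124-7347373, Mmp27 at chr9:7571146-7571395 and Mmp3 at chr9:7445572-7445821.
Mmp13: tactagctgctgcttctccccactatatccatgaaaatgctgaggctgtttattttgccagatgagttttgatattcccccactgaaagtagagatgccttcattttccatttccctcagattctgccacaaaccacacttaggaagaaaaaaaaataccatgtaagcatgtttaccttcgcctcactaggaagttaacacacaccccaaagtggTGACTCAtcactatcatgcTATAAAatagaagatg
Mmp12: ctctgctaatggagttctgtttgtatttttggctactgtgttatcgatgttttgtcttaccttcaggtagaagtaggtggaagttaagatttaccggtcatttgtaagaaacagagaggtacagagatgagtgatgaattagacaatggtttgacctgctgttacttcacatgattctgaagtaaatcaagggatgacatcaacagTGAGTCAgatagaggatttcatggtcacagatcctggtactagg
Mmp27: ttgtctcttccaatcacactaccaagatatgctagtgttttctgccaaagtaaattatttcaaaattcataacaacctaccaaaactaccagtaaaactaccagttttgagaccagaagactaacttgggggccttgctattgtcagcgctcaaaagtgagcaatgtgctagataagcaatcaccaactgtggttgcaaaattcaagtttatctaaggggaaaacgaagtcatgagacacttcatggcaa
Mmp3: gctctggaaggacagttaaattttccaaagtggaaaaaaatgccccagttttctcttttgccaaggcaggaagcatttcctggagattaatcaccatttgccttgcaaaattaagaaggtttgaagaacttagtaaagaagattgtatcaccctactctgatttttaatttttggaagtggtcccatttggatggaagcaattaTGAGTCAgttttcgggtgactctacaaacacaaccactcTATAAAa
Mmp12 has a second RefSeq start, whose window at chr9:7344147-7344396 held none of these letters and is not shown. The AP-1 motif began 35 bases before the start in Mmp13, 44 bases before it in the Mmp12 window shown and 46 bases before it in Mmp3, and none of the letters searched were in the Mmp27 window. Mmp13 and Mmp3 also held TATAAA. Of the 44 genes, 31 had at least 1 window in the RefSeq table (34 windows). Mmp19, Adamts10 and Adamts6 had none. AP-1 letters stood in 8 of the 34 windows (23.5%), against 6.75% of all 32851 windows of the same length. All 8 belonged to different genes of the chromosome 9 cluster, whose 9 selected genes all had a window, and none of the other 22 genes held them. Mmp8, a cluster gene outside the selection, was not counted here. TATAAA stood in 7 of these 9 and in 2 of the other 22, against 7.59% of all windows. TGGGAA, the core motif of the Notch partner RBPJ, searched on both strands, stood in 1 of the 9 (Mmp7) and in 4 of the other 22 (Adamts13, Adamts14, Mmp28 and Timp1), against 21.6% of all windows. The cluster genes with AP-1 letters thus included the called genes Mmp12 and Mmp13 as well as Mmp3, and the called gene Mmp27 lacked them.

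Mmp12 (chr9:7347374-7360461), the macrophage elastase, stood at 9.14, 9.36 and 33.7 RPKM in Ctrl and at 142, 138 and 152 RPKM in NICeCA. The NICeCA values were close together and all far above the Ctrl values, of which replicate 3 was highest. The mean was 17.4 ± 14.1 RPKM (SD, n = 3) in Ctrl and 143.9 ± 7.27 RPKM in NICeCA, an 8.26-fold ratio. The log2 fold change was 3.23 (SE 0.43, 95% interval 2.23 to 4.23, adjusted p = 0.0111).

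Mmp13 (chr9:7272514-7283333), the chief interstitial collagenase of rodents, had 1.75, 3.60 and 11.9 RPKM in Ctrl and 48.0, 44.7 and 56.7 RPKM in NICeCA. As for Mmp12, Ctrl replicate 3 was the highest control and still lay well under every NICeCA library. The mean went from 5.73 ± 5.38 to 49.8 ± 6.17 RPKM, an 8.68-fold ratio, with a log2 fold change of 3.21 (SE 0.48, adjusted p = 0.0160).

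Mmp27 (chr9:7571458-7581393), a little-studied member of the stromelysin-like group, had 0.201, 0.167 and 0.201 RPKM in Ctrl and 1.69, 1.56 and 2.27 RPKM in NICeCA. These low values rested on 13, 11 and 13 reads in Ctrl and 102, 91 and 140 reads in NICeCA. The groups were far apart for their spread, and the ratio of means was 9.69-fold. The log2 fold change was 1.25 (SE 0.15, adjusted p = 0.0109), which the added 1 RPKM holds down at this level. On the recovered reads (limma voom) it was 3.18.

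Mmp19 (chr10:128790910-128800824), which cuts basement membrane proteins, had 28.9, 18.7 and 27.6 RPKM in Ctrl and 55.2, 45.9 and 38.0 RPKM in NICeCA. All NICeCA libraries were above all Ctrl libraries, with a ratio of means of 1.85. The log2 fold change was 0.87 (SE 0.20, adjusted p = 0.0373). Its exons share 789 bases with Tmem198b on the opposite strand. The mean over all libraries was 19.05 RPKM for Tmem198b and 35.7 RPKM for Mmp19. The sources used here do not say whether counting used strand, so reads of that stretch cannot be assigned.

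The 4 calls depended on the libraries to differing degrees. Without NICeCA replicate 1 the adjusted p was 0.0538 for Mmp12, 0.0738 for Mmp13 and 0.133 for Mmp19, and without NICeCA replicate 2 it was 0.0562, 0.0662 and 0.143, so that none of these passed in either case. The fold changes of Mmp12 (3.24 and 3.26) and Mmp13 (3.23 and 3.28) hardly moved there, and Mmp27 fell under the 1 RPKM limit. Over all tested rows, these fits with 5 libraries called 104 and 18 genes in place of 1671. Mmp19 also did not pass without Ctrl replicate 2 (log2 fold change 0.68, adjusted p = 0.0767). Without Ctrl replicate 3, the fold changes were 3.82 for Mmp12 and 3.83 for Mmp13. An exact two-sided permutation test of 3 against 3 libraries cannot give a p under 0.1. Every gene whose groups do not overlap reaches that value. The 8 called genes did, and so did Mmp14, Mmp24 and Adamts1, which were not called, so the test does not set the called genes apart.

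**Figure D2:**
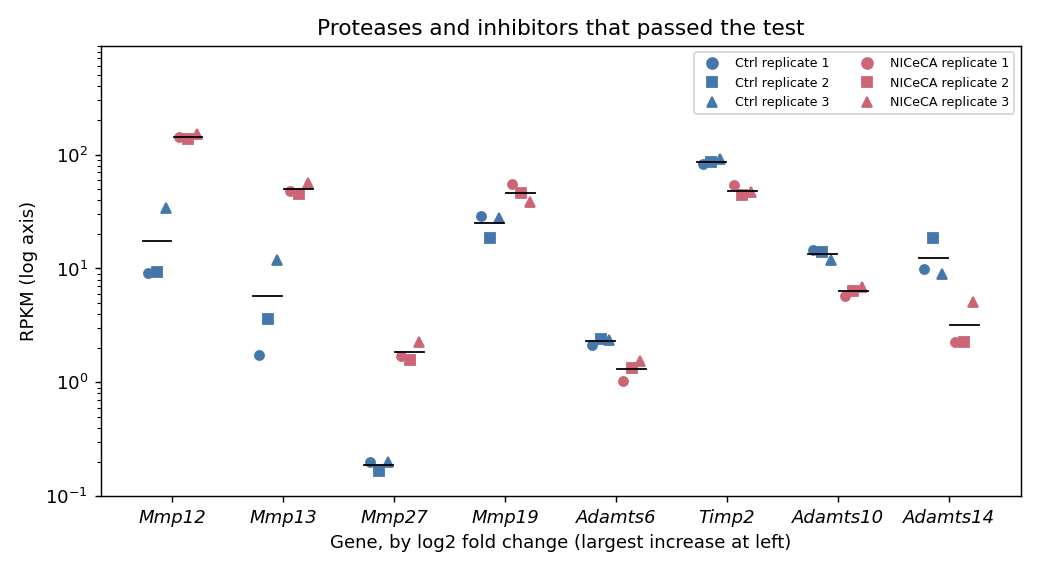
RPKM (log axis) of the 8 genes that passed the test, by library, with the 3 Ctrl libraries in blue, the 3 NICeCA libraries in red, marker shapes for the replicate number and a black line at each group mean. Mmp12 rose from a mean of 17.4 to 143.9 RPKM, Timp2 fell from 86.6 to 48.0 RPKM, and in all 8 genes the groups do not overlap.

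Neutrophil markers and the chemokines Pf4 and Ppbp moved in the same direction as the higher MMPs, and macrophage markers were divided. The 10 neutrophil markers summed to 114.4, 198.6 and 264.4 RPKM in Ctrl and 528.5, 831.3 and 1593 RPKM in NICeCA. Of 7 tested members 6 were higher, against 5.88% of all tested rows, and Mpo was under 1 RPKM in every library. Ctrl replicate 3, the control with most Mmp12 and Mmp13, also had the highest control sum. The NICeCA libraries, by contrast, spread widely in the neutrophil sum and little in Mmp12. The 10 platelet and megakaryocyte markers summed to 117 to 199.3 RPKM in Ctrl and 1177 to 1309 RPKM in NICeCA, almost all of it from Pf4 and Ppbp, the 2 of 4 tested members that were higher. The other tested members, Itga2b and Gp1bb, had log2 fold changes of 0.26 and -0.26 and did not pass, and Gp6 was under 1 RPKM in every library. Of 9 macrophage markers, Cd14 and Cd68 were higher and 7 did not pass, with a list median of -0.17. Among those 7, C1qa (-0.54), C1qc (-0.53), C1qb (-0.41), Csf1r (-0.30) and Lyz2 (-0.17) had negative log2 fold changes. Mrc1 (1.21) and Ms4a7 (0.07) had positive ones, with all NICeCA libraries above all Ctrl libraries for Mrc1. The ranges of the summed macrophage level overlapped. The part of these cells in the MMP values was not tested.

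The chromosome 9 cluster spans chr9:7272514-7699416 and holds 10 MMP rows and no other RefSeq row. In their order along the chromosome these are Mmp13, Mmp12, Mmp1b, Mmp3, Mmp1a, Mmp10, Mmp8, Mmp27, Mmp20 and Mmp7. Mmp8, the neutrophil collagenase, is outside the selection and had a log2 fold change of 3.92 (adjusted p = 0.0069). Mmp3, stromelysin that also activates other proenzymes, lies between called genes and had 7.24, 19.8 and 24.8 RPKM in Ctrl and 13.3, 10.2 and 21.5 RPKM in NICeCA. The Mmp3 groups overlapped (log2 fold change -0.10, 95% interval -1.09 to 0.89, adjusted p = 0.890). Mmp10, a second stromelysin, had 0.0747, 0.205 and 0.524 RPKM in Ctrl and 0.639, 0.380 and 0.893 RPKM in NICeCA, too low to be tested. Mmp1a and Mmp1b (collagenases), Mmp7 (matrilysin) and Mmp20 (enamelysin, an enzyme of tooth enamel) stayed under 0.3 RPKM in every library.

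**Figure D3:**
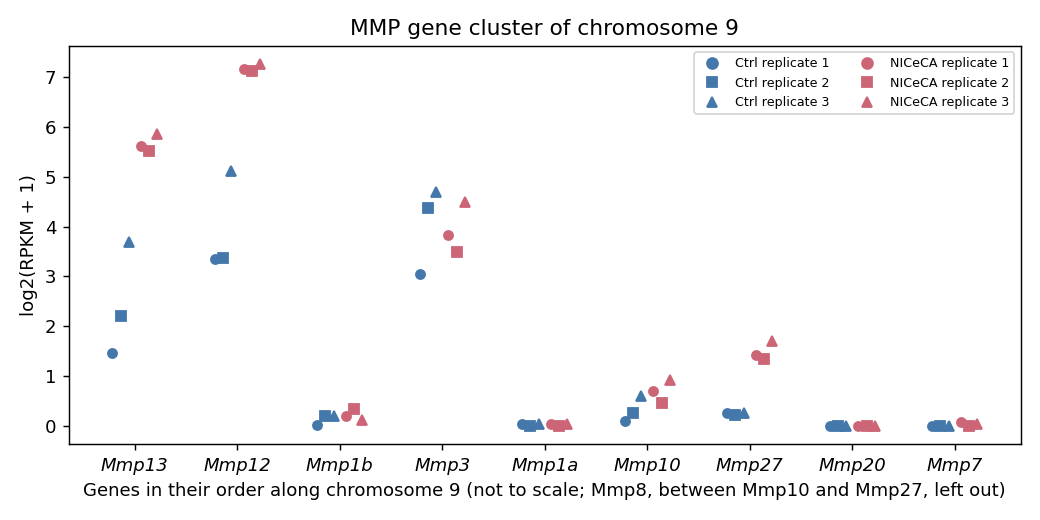
Log2(RPKM + 1) of the 9 selected genes of the chromosome 9 cluster, in their order along the chromosome and not to scale, by library. Mmp13, Mmp12 and Mmp27 show the 3 NICeCA libraries (red) above the 3 Ctrl libraries (blue), Mmp3 overlaps between groups, and the others are near 0.

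Membrane-type MMPs act at the cell surface, and none of the 4 tested passed the test. Mmp14, which cuts fibrillar collagen and activates proMmp2, was the most abundant member on average, with 93.6, 105 and 101 RPKM in Ctrl and 89.4, 85.4 and 85.1 RPKM in NICeCA. All NICeCA values lay below all Ctrl values, but the difference was small (log2 fold change -0.20, 95% interval -0.47 to 0.06, adjusted p = 0.242). Only quantile normalization among the alternatives brought it past the threshold (-0.55, adjusted p = 0.0338). Mmp15 had a log2 fold change of 0.58 (adjusted p = 0.0895), Mmp25 of 0.18 (0.679) and Mmp24 of -0.38 (0.132). Mmp24 shares 637 exon bases with BC029722 on the opposite strand. The mean over all libraries was 12.6 RPKM for BC029722 and 2.05 RPKM for Mmp24, and reads of the shared bases cannot be assigned. Of the other tested MMPs, Mmp2, the gelatinase that Mmp14 activates, had a log2 fold change of 0.50 (adjusted p = 0.135), Mmp11 of -0.67 (0.0791), Mmp28 of -0.53 (0.153) and Mmp23 of -0.23 (0.381).

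Among the inhibitors, Timp2 was the most abundant in every library and was the 1 member that passed the test. Timp2 (chr11:118301061-118355411), which also joins Mmp14 in the activation of proMmp2, had 83.1, 85.3 and 91.5 RPKM in Ctrl and 53.6, 43.9 and 46.7 RPKM in NICeCA. The libraries of each group were close together and the groups did not overlap. The mean went from 86.6 ± 4.37 to 48.0 ± 4.98 RPKM, which is 55.4% of Ctrl, with a log2 fold change of -0.84 (SE 0.13, adjusted p = 0.0160). Without NICeCA replicate 2 it was -0.78 (adjusted p = 0.0892). A row named BC100451, with a mean of 4.92 RPKM, overlaps Timp2 on the same strand. Its exons were not in the annotation used, so bases shared with Timp2 exons could not be counted.

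The other TIMPs varied widely within groups. Timp1, a broad inhibitor of soluble MMPs, had 9.18, 15.5 and 19.9 RPKM in Ctrl and 24.0, 12.2 and 16.1 RPKM in NICeCA (log2 fold change 0.23, adjusted p = 0.623). Timp3, which is held in the matrix and also inhibits ADAM and ADAMTS enzymes, had 24.9, 5.77 and 10.9 RPKM in Ctrl and 28.6, 22.0 and 15.2 RPKM in NICeCA (0.80, adjusted p = 0.236). Ctrl replicate 1, the control with most Timp3, had an endothelial marker sum of 526.4 RPKM, and Ctrl replicates 2 and 3 had 191.4 and 255.5 RPKM. In NICeCA the order differed, as replicate 1, with most Timp3, had the lowest endothelial sum (442.9 RPKM). The part of endothelial cells in the Timp3 values was not tested. Timp4 had 0.886, 0.0709 and 0.109 RPKM in Ctrl and 1.04, 3.60 and 0.531 RPKM in NICeCA (0.90, adjusted p = 0.159), with 1 NICeCA library far above the rest. Timp3 shares 1733 exon bases with Syn3 and Timp4 shares 90 with Syn2, both on the opposite strand and with means under 0.3 RPKM.

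The make-up of the summed RPKM of the selected MMPs and of the TIMPs differed between the groups. The 21 MMPs, without Mmp8 and Mmp9, summed to 161.5, 180.7 and 221.7 RPKM in Ctrl and 370.2, 348.1 and 383.5 RPKM in NICeCA. Mmp8 had means of 2.59 RPKM in Ctrl and 51.9 RPKM in NICeCA, and Mmp9 had 6.63 and 65.2 RPKM. Both are outside this sum, its shares and the ratio below, which therefore do not describe all MMPs. Mmp14 made up 58.0%, 58.1% and 45.8% of this sum in Ctrl and 24.2%, 24.5% and 22.2% in NICeCA, where Mmp12 held 38.3%, 39.6% and 39.6%. In Ctrl, Mmp12 held 5.66%, 5.18% and 15.2%, so the leading gene changed from Mmp14 in every Ctrl library to Mmp12 in every NICeCA library. The 4 TIMPs summed to 118, 106.7 and 122.5 RPKM in Ctrl and 107.1, 81.7 and 78.5 RPKM in NICeCA. Timp2 made up 70.4%, 80.0% and 74.7% of that sum in Ctrl and 49.99%, 53.7% and 59.5% in NICeCA. The ratio of summed MMP to summed TIMP RPKM was 1.37, 1.69 and 1.81 in Ctrl and 3.46, 4.26 and 4.89 in NICeCA, a description of RNA levels for which no test was run.

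**Figure D4:**
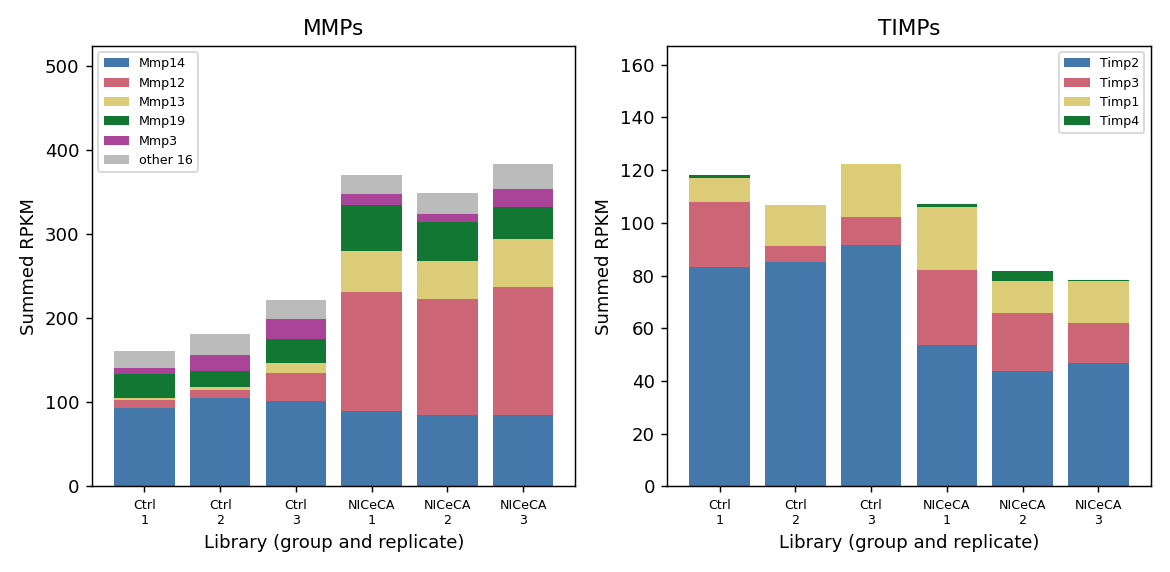
Summed RPKM of the 21 selected MMPs, without Mmp8 and Mmp9 (left), and of the 4 TIMPs (right) in each library, stacked by gene. The MMP bars are 161.5 to 221.7 RPKM in Ctrl and 348.1 to 383.5 RPKM in NICeCA, where Mmp12 takes the place of Mmp14 as the largest part, and the Timp2 part of the TIMP bars is smaller in NICeCA.

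The 3 ADAMTS genes that passed the test, Adamts14, Adamts10 and Adamts6, all fell. Adamts14 (chr10:61197112-61273438), a procollagen N-proteinase that trims the amino end of fibrillar procollagens, had 9.89, 18.5 and 8.87 RPKM in Ctrl and 2.27, 2.26 and 5.11 RPKM in NICeCA. The groups did not overlap, with Ctrl replicate 2 highest and NICeCA replicate 3 closest to the controls. The mean fell from 12.4 ± 5.31 to 3.21 ± 1.65 RPKM, which is 25.9% of Ctrl (log2 fold change -1.67, SE 0.32, adjusted p = 0.0262). Its window, on the minus strand at chr10:61273420-61273669, is shown because it is the one window of a called gene with the RBPJ letters, in capitals, which begin 220 bases before the start.
Adamts14: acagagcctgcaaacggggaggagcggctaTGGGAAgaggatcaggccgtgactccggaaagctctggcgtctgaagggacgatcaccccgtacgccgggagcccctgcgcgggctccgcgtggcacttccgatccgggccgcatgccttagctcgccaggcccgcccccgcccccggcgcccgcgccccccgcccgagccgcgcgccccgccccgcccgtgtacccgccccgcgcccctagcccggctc
The other tested procollagen N-proteinase, Adamts2, had a log2 fold change of 0.32 (adjusted p = 0.237).

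Adamts10 (chr17:33524196-33553782), which binds fibrillin microfibrils, had 14.6, 13.8 and 11.8 RPKM in Ctrl and 5.69, 6.28 and 6.89 RPKM in NICeCA. Each group was tight and the means were 13.4 ± 1.48 and 6.29 ± 0.60 RPKM, the latter 46.9% of Ctrl (log2 fold change -0.98, SE 0.13, adjusted p = 0.0111). Adamts6 (chr13:104287873-104494763), the closest relative of Adamts10, had 2.12, 2.41 and 2.33 RPKM in Ctrl and 1.03, 1.34 and 1.53 RPKM in NICeCA, 56.8% of Ctrl. Its groups did not overlap, but its adjusted p of 0.0467 (log2 fold change -0.52, SE 0.14) was near the threshold and was not under it in 10 of 14 alternatives, among them each fit that left out 1 library (0.0596 to 0.165). Without NICeCA replicate 1 the adjusted p was 0.112 for Adamts14 and 0.0540 for Adamts10, and without NICeCA replicate 2 it was 0.112 and 0.0613, while the log2 fold changes there were -1.52 for Adamts14 in both and -0.92 and -0.98 for Adamts10. The fibroblast marker sum moved in the same direction as these genes. It was 411.1, 671.2 and 475.5 RPKM in Ctrl and 249.9, 197.9 and 385 RPKM in NICeCA. Most of the sum was Col3a1, with 270.1 to 453.8 RPKM in Ctrl and 103.2 to 226.2 RPKM in NICeCA. Col3a1, Dpt, Lum and Pdgfra were lower and Postn was higher. Of the other tested markers, Dcn (-0.82) and Thy1 (-0.19) had negative and Col1a1 (0.10) and Col1a2 (0.55) positive log2 fold changes, and none passed. The sum was highest in Ctrl replicate 2, as for Adamts14 and Adamts6, while Adamts10 was highest in Ctrl replicate 1 and Timp2 in Ctrl replicate 3. The part of fibroblasts in the lower ADAMTS and Timp2 values was not tested.

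The proteoglycan-cleaving ADAMTS genes had positive fold changes, and none of the 3 tested passed. Adamts1, an aggrecan- and versican-cleaving enzyme, had 25.3, 17.9 and 19.8 RPKM in Ctrl and 27.1, 31.5 and 39.3 RPKM in NICeCA. All NICeCA libraries were above all Ctrl libraries (log2 fold change 0.61, 95% interval 0.19 to 1.03, adjusted p = 0.0593), and the adjusted p stayed between 0.0511 and 0.177 in the 14 alternatives. Adamts4, a second aggrecanase, had 16.0, 9.52 and 11.7 RPKM in Ctrl and 15.5, 20.03 and 28.2 RPKM in NICeCA, with 1 NICeCA library inside the Ctrl range (0.72, adjusted p = 0.0825). Adamts9 had a log2 fold change of 0.57 (adjusted p = 0.189). Of the COMP-cleaving enzymes, Adamts12 had 0.45 (adjusted p = 0.181) and Adamts7 had -0.25 (0.465). The 19 ADAMTS genes summed to 88.2, 74.7 and 67.6 RPKM in Ctrl and 67.9, 80.7 and 103.3 RPKM in NICeCA, with overlapping groups, and Adamts1 made up 28.7%, 23.9% and 29.4% of the sum in Ctrl and 39.9%, 39.0% and 38.0% in NICeCA.

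The 18 genes that were not tested stayed under 1 RPKM in every library, 13 of them under 0.3 RPKM, and 6 were listed at 0 in at least 1 library. In 4 of them (Adamts8, Adamts13, Adamts16 and Adamts17) all NICeCA libraries were above all Ctrl libraries, and in none were all below. The share above was 16.5% among tested rows. It was not computed over all rows under 1 RPKM, so the count has no matching background. Adamts8, an aggrecanase known to inhibit angiogenesis, had 0.0776, 0.0553 and 0.0706 RPKM in Ctrl and 0.687, 0.218 and 0.318 RPKM in NICeCA, from 11, 8 and 10 and from 91, 28 and 43 reads. The other 3 rested on at most 27 reads in a library. Among them, Adamts13, the von Willebrand factor-cleaving protease, had 0, 4 and 5 reads in Ctrl and 6, 17 and 17 in NICeCA. When every row with a value above 0 was fitted, none of the 18 passed, and Adamts8 was nearest (adjusted p = 0.0988, unadjusted p = 0.0117), with Adamts13 the other of the 18 at an unadjusted p under 0.05 (0.0275).

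Genes that act with these proteases were read from the same fit. Of 20 activators, cofactors and inhibitors, 13 were tested, 4 were higher (30.8%, against 5.88% of all tested rows) and none lower (7.68% of all tested rows), with a median log2 fold change of 0.42. Serpine2, a plasminogen activator and thrombin inhibitor, had a log2 fold change of 1.25 (1.48 to 4.999 RPKM, Ctrl to NICeCA mean, adjusted p = 0.0262). Plaur, the urokinase receptor, had 1.00 (117.3 to 231.0 RPKM, adjusted p = 0.0281), Bsg, an inducer of MMPs, had 0.93 (84.0 to 159.6 RPKM, adjusted p = 0.0211), and the proteoglycan Sdc1 had 0.96 (27.4 to 52.3 RPKM, adjusted p = 0.0485).

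Of 17 ADAM and ADAMTSL relatives, 10 were tested, with a median of 0.02. Of these, 1 was higher (10%) and 1 lower (10%), close to the 5.88% and 7.68% of all tested rows. Adam8, a sheddase of leukocytes, had 86.8, 84.1 and 146 RPKM in Ctrl and 391, 309 and 336 RPKM in NICeCA (log2 fold change 1.74, adjusted p = 0.0109). As for Mmp12, Ctrl replicate 3 was the highest control. Adamtsl3, a matrix protein without protease activity, had a log2 fold change of -1.16 (6.08 to 2.25 RPKM, adjusted p = 0.0480).

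Of 20 non-collagen substrates, 15 were tested, with a median of 0.14. Of these, 4 were higher (26.7%) and 2 lower (13.3%), against 5.88% and 7.68% of all tested rows. The higher ones were thrombospondin Thbs1 (log2 fold change 1.90, 418 to 1464 RPKM, adjusted p = 0.0219), osteopontin Spp1 (1.79, 137.2 to 469 RPKM, 0.0231), Vwf, the target of Adamts13 (1.15, 10.9 to 24.5 RPKM, 0.0356), and elastin Eln, a substrate of Mmp12 (1.14, 1.34 to 4.28 RPKM, 0.0297). The lower ones were the collagen-binding proteoglycan Lum (-1.01, 17.3 to 8.02 RPKM, 0.0427), also in the fibroblast list, and the basement membrane proteoglycan Hspg2 (-0.69, 50.4 to 31.0 RPKM, 0.0397). Over the 3 lists, 9 of 38 tested genes were higher (23.7%, against 5.88%) and 3 were lower (7.89%, close to the 7.68% of all tested rows), and without NICeCA replicate 1 or NICeCA replicate 2 the number called was 0, while without Ctrl replicate 2 it was 7.

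**Figure D5:**
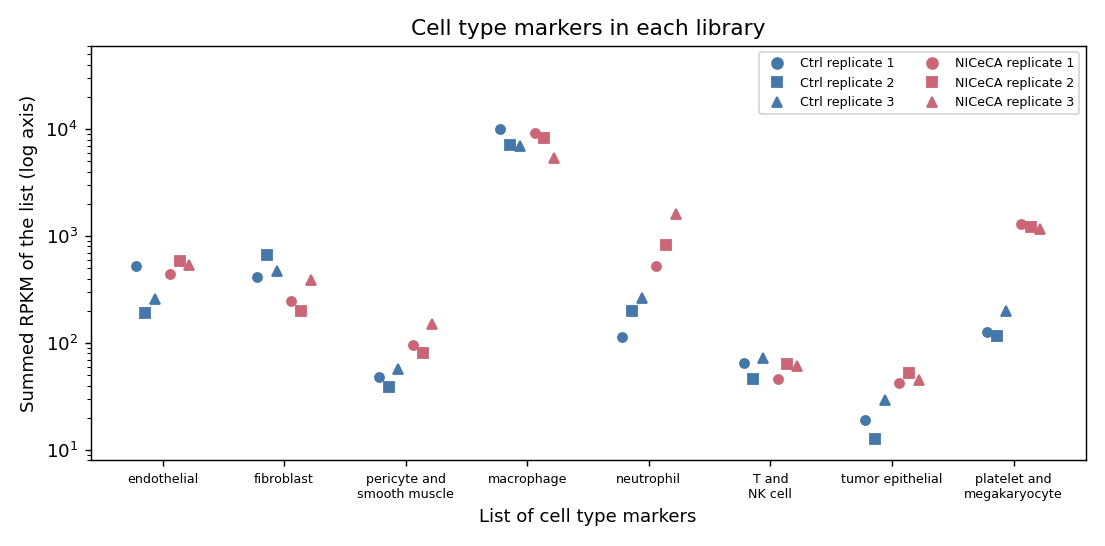
Summed RPKM (log axis) of 8 lists of cell type markers in each library, with Ctrl in blue, NICeCA in red and marker shapes for the replicate number. The macrophage sum (5319 to 9942 RPKM) exceeds the endothelial sum (191.4 to 582.7 RPKM) in every library. The neutrophil, platelet, pericyte and tumor epithelial sums are higher and the fibroblast sum lower in all NICeCA libraries. In NICeCA, most of the tumor epithelial sum is Cd24a, and almost all of the platelet sum is Pf4 and Ppbp.

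The remaining lists completed the view of the cell mixture. The 10 pericyte and smooth muscle markers summed to 38.8 to 57.4 RPKM in Ctrl and 79.9 to 151 RPKM in NICeCA. Of 9 tested members 3 were higher, against 5.88% of all tested rows. The 10 tumor epithelial markers summed to 12.6 to 29.1 and 42.2 to 52.2 RPKM, with Cd24a higher and Krt18 lower. Cd24a alone had 5.45 to 16.0 RPKM in Ctrl and 33.2 to 45.5 RPKM in NICeCA, most of the NICeCA sum. Epcam, Krt7, Krt8, Krt19, Cldn4, Cldn7 and Elf3 were under 1 RPKM in every library. The 9 T and NK cell markers in the table summed to 46.6 to 72.4 and 45.8 to 63.4 RPKM, with no member past the test. None of the 10 endothelial markers passed the test (limma, median log2 fold change 0.66).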

How the data were processed

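Bulk RNA-seq of 3 Ctrl and 3 NICeCA libraries was used. The authors deposited 1 RPKM value per row and library (56826 rows, replicates not pooled), from rRNA-depleted libraries aligned with TopHat2 according to the submitters' processing notes. The read counter and its strand setting were not given in these sources. The processing notes give mm9, but all 44 genes, and 99.3% of the RefSeq rows matched to a symbol, overlap their place in GRCm38, so positions are given as GRCm38. The 33353 FANTOM3 rows were left out. RPKM times row length was a whole multiple of a step for 100% of values under 1000 reads (within 0.05 of a read), which gave the reads.

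From these values, log2(RPKM + 1) of RefSeq rows with a mean of at least 1 RPKM was fitted in limma 3.58.1 (R 4.3.3, lmFit and eBayes with trend, two-sided, Benjamini-Hochberg over 12320 rows, adjusted p under 0.05). The procedure was tested on simulated data. The p-values measure the spread between single mice. Alternatives were other scaling, filters, pseudocount, variance model, limma voom on recovered reads, a replicate block and leaving out each library. Members, classes and lists were chosen with earlier results of these data known. Values in every library are given for members past the test, for each TIMP and for the 10 members with the highest mean, and related genes are those past the test. Values of Mmp10, Adamts8, Adamts13, Mmp8 and Mmp9, and the promoter windows shown, were chosen after values were seen. Promoter windows are from the RefSeq table of GRCm38.p6.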

Additional observations from a re-analysis of the deposited data

How the results depend on the processing

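Over 14 alternatives, the 8 called members kept their direction wherever they could be fitted. Mmp27 passed in all 10 in which it was fitted, and was under the filter at a mean of at least 5 RPKM and without each NICeCA library. It had passed the filter through the NICeCA libraries alone. The fits without NICeCA replicate 1 or 2, in which Mmp12, Mmp13 and Mmp19 did not pass, thus could not check its call. The count of 10 does not make it a firmer call than theirs. The number of higher members was 4, and leaving out 1 library gave 0 to 6. The number of lower members was 4, with 2 under no filter and 0 to 4 when 1 library was left out. The number of related genes called was 12, with 7 after quantile normalization, 2 under no filter, 7 with the replicate block and 0 to 13 when 1 library was left out. The cause of these changes was not tested, except that fits without a library hold fewer samples and the fit without a filter tests 22072 rows. Under no filter Adamts14 (adjusted p = 0.0613), Mmp19 (0.0704) and Adamts6 (0.0847) did not pass. Directions turned in 3 members that did not pass in any fit, when 1 library was left out: Mmp25 ranged from -0.11 to 0.48, Mmp3 from -0.59 to 0.23 and Timp1 from -0.064 to 0.46 (log2 fold change). Members that passed only in an alternative were Mmp15 (adjusted p = 0.0442) and Adamts9 (0.0427) without Ctrl replicate 1, Mmp11 (0.0456) without NICeCA replicate 3, and Mmp14 under quantile normalization.

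The study describes 3 pairs of NICeCA and control mice, and which libraries form a pair is not stated in the sources used here. Replicate numbers did not show a pairing: the correlations of same-numbered deviations were 0.12, -0.34 and -0.18, and not every library correlated best with its own number. The highest was 0.44, for Ctrl replicate 2 with NICeCA replicate 3. A pairing under other numbers was not fitted, and the main fit was unpaired. With the replicate block 3 members were higher and 3 lower, as Mmp19 (adjusted p = 0.0558) and Adamts6 (0.0941) did not pass, and it changed no other member's call.

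Over all tested rows, 1671 were called, of which 43.4% were higher. The count was 771 (57.9% higher) after quantile normalization, 365 (71.2%) with no filter, 536 (61.0%) with the block, 2020 (33.8%) with voom, 1709 (58.1%) with trimmed-mean scaling and 18 to 1655 when 1 library was left out. The lowest were 18 without NICeCA replicate 2, 104 without NICeCA replicate 1, 379 without Ctrl replicate 2 and 1035 without Ctrl replicate 1. The 18 members under 1 RPKM were not tested in the main comparison.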
